A study of Rattus norvegicus with 30 samples.

Results

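Potassium channel genes were followed in the dorsal hippocampus of TgF344-AD and wildtype rats on a western diet or chow. The set was defined by symbol: a row belonged to it if its name began with Kcn, went on with letters and a number, and had a summed count of at least 300 over the 30 libraries. Of 90 rows with such a symbol, 77 reached that sum, out of 17455 rows in the whole table. Closest above the limit were Kcnq1 with 322 counts, Kcng3 with 344 and Kcne4 with 511, and closest below it were Kcnn4 with 236, Kcne3 with 192 and Kcnv2 with 183. The limit used no comparison between groups, and all 77 genes also passed the filter on low counts of the statistical fit.

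TgF344-AD is a transgenic Fischer rat line that carries mutated human APP and a further mutated human transgene, both driven by the mouse prion promoter, so every cell type in which that promoter is active can make the proteins. The labels call these rats alzheimer, and none of the sources used here gives their age. Crossing sex, genotype and diet gave 8 groups. Females made up the groups female alzheimer western (3 libraries, replicates 11, 18 and 21), female wildtype western (3, replicates 12, 17 and 22), female alzheimer chow (4, replicates 10, 14, 16 and 19) and female wildtype chow (4, replicates 9, 13, 15 and 20). Males made up male alzheimer western (4, replicates 1, 6, 23 and 28), male wildtype western (4, replicates 2, 5, 24 and 27), male alzheimer chow (4, replicates 3, 8, 25 and 30) and male wildtype chow (4, replicates 4, 7, 26 and 29). The labels also name 2 cohorts, both of which are present in every group. They do not state that each library is a separate animal. Each p-value therefore comes from a test against the spread between libraries, which may not be that between animals.

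Potassium channels let potassium leave the cell down its gradient, which pulls the membrane back towards rest after a spike, sets how strongly a neuron must be driven to fire and, in astrocytes, clears potassium from the space between cells. Voltage-gated channels are built from pore subunits of the Kcna, Kcnb, Kcnc, Kcnd, Kcnh and Kcnq families. Subunits of the Kcnf, Kcng, Kcns and Kcnv families carry no current alone and change the behaviour of Kcnb channels, and Kcnab, Kcnip, Kcne and Kcnmb encode accessory proteins. Kcnj genes encode inward rectifiers, Kcnk genes encode the channels of the resting leak, Kcnma and Kcnn genes encode channels opened by calcium, and Kcnt genes encode channels opened by sodium. In hippocampal pyramidal cells, Kcnd channels carry the dendritic A-type current and Kcnq channels the M current, both of which restrain repeated firing.

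Depth ran from 13.9 to 31.4 M counts per library (M standing for mega; median 17.8 M), of which the 77 genes together took 0.438% to 0.492%. Markers of all 4 hippocampal subfields were present, with summed levels of 1019 to 1570 CPM for CA1 (counts per M after TMM scaling, the unit of every level below) and 322 to 431 CPM for the dentate gyrus, beside 47.6 to 67.5 CPM for thalamus and 117 to 149 CPM for neocortex. Choroid plexus markers stood apart in 3 libraries, with 64.6 CPM in male alzheimer chow replicate 30, 36.8 CPM in female wildtype chow replicate 20 and 19.4 CPM in female alzheimer western replicate 11, against a median of 6.64 CPM over all 30 libraries. Each result was also computed without those 3 libraries. In bulk tissue, fewer cells of a type and less RNA per cell cannot be told apart, which holds for every difference below.

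Summed over the 77 genes, the level was 4487, 4640 and 4947 CPM (lowest, median and highest) in alzheimer rats and 4374, 4558 and 4827 CPM in wildtype rats. Subfamily sums moved little between the 8 groups: the highest group mean was 1.06 to 1.23 times the lowest in all 19 subfamilies. The widest of these ratios belonged to Kcns, the 3 silent subunits Kcns1, Kcns2 and Kcns3, which averaged 49.9 ± 4.74 CPM in male alzheimer chow rats and 40.4 ± 1.78 CPM in female wildtype western rats (SD, n = 4 and 3). For Kcnq, the M-current genes, the means were 583 ± 39.8 CPM in male alzheimer chow rats and 503 ± 12.8 CPM in male wildtype western rats. Kcnj, the inward rectifiers, averaged 985 ± 38.0 CPM in female alzheimer western rats and 885 ± 21.3 CPM in male wildtype western rats. These sums were not tested.

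**Figure D1:**
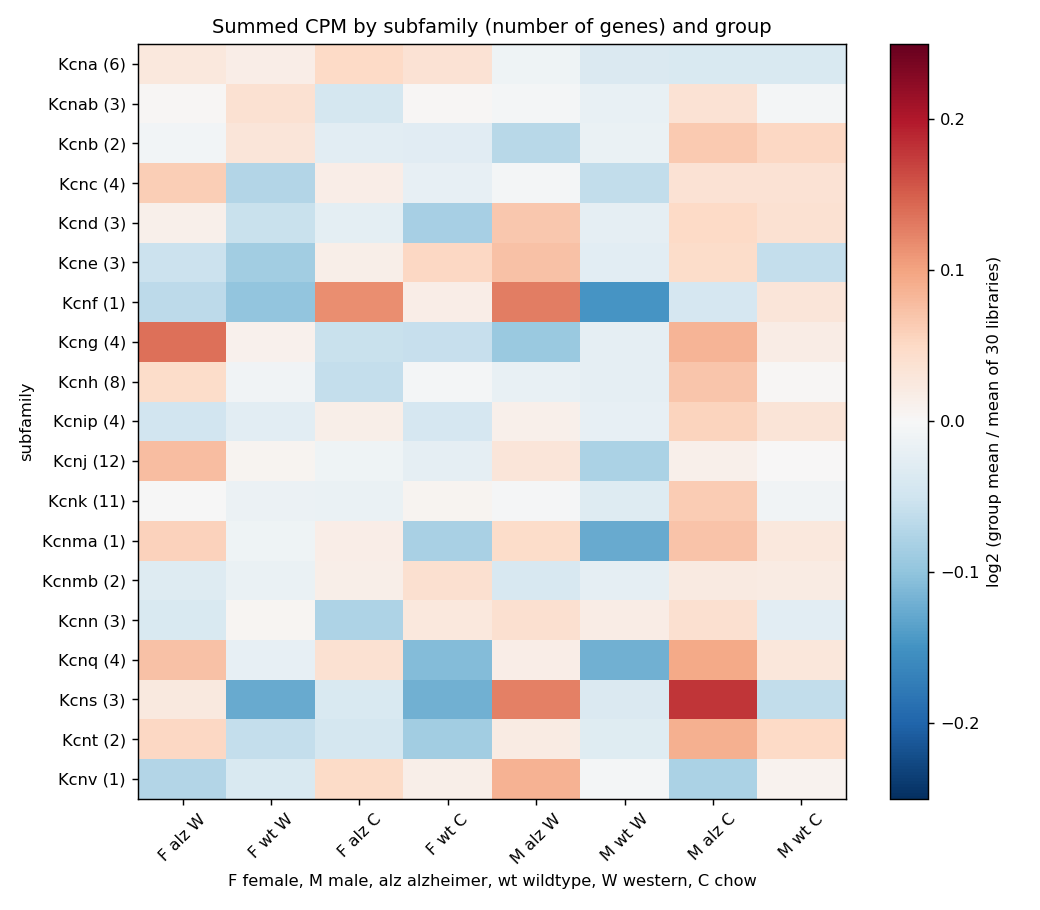
Map of summed expression by subfamily (rows, with the number of genes) and group (columns), as the log2 ratio of the group mean to the mean of 30 libraries; red is above and blue below that mean. The largest distance from the mean is 0.178 on this scale, for Kcns in male alzheimer chow rats.

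The genotype comparison asks which of these genes differ between transgenic and wildtype rats when sex and diet are averaged. A gene counts as changed, or called, where its adjusted p was under 0.05. Of the 77 genes, 6 rose and 2 fell in alzheimer rats, or 10.4%, beside 8.03% of all 12547 genes tested (1007 genes; 4.14% rose and 3.89% fell), so the share of changed genes was close to that background. An unadjusted p under 0.05 was reached by 17 of the 77 (22.1%) and by 22.3% of all genes tested. Among the called genes Kcns1 rose most, Kcnj16 fell most, and the other 6 changes were small. Of these, Kcnd3, Kcnh1, Kcnq3, Kcnj4 and Kcnj3 rose and Kcnk15 fell. The median log2 fold change of the 77 genes was 0.043, against 0.0020 for all genes tested, and 55 of 77 (71.4%) were positive, against 51.1%. In cohort 2 alone 7 of the 77 genes passed, and in cohort 1 alone 1, which was Kcns1.

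**Figure D2:**
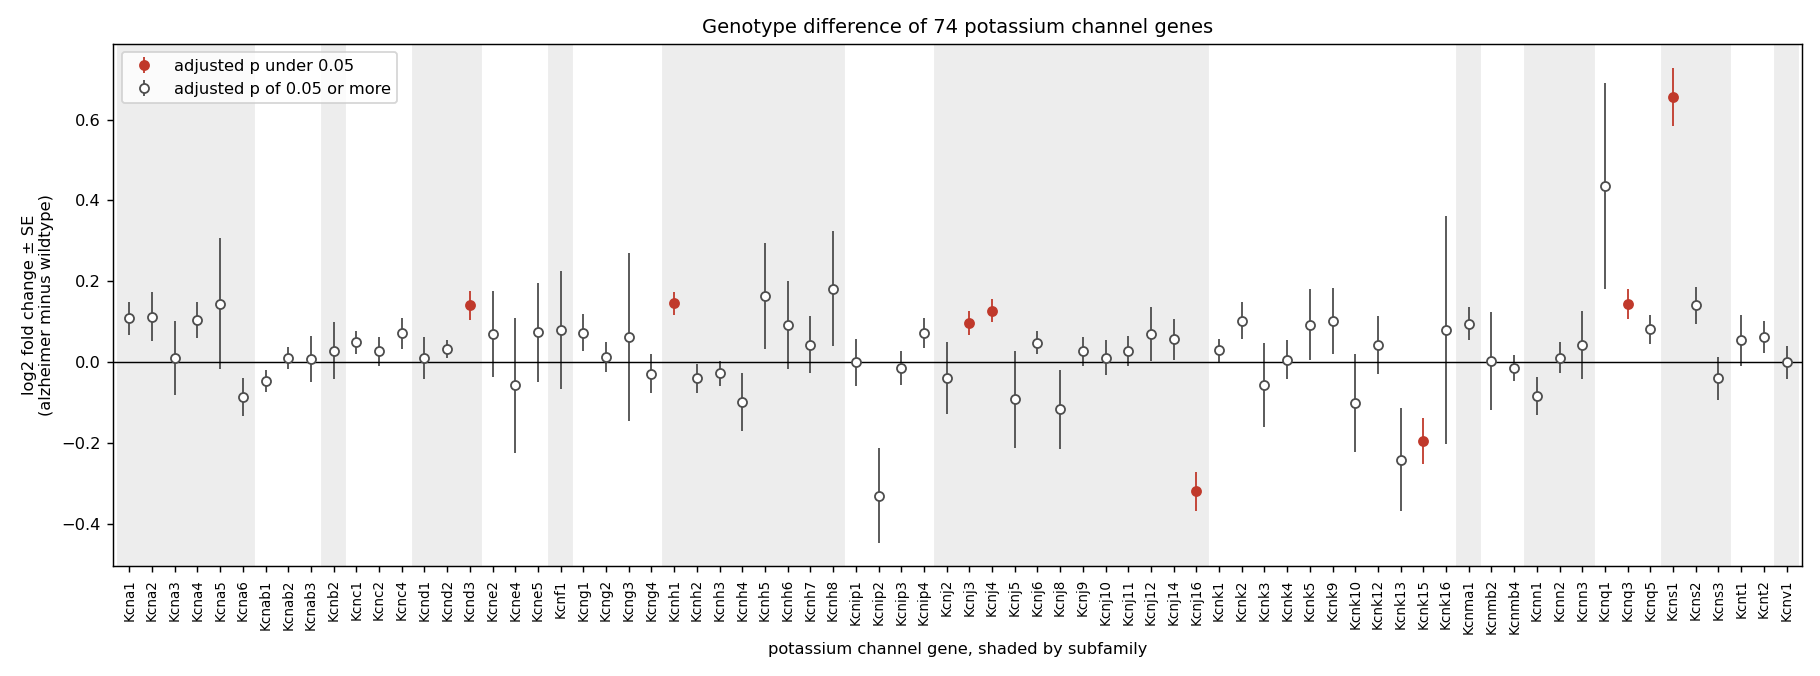
Genotype difference of 74 of the 77 genes (horizontal axis, shaded by subfamily) as log2 fold change, alzheimer minus wildtype, with its standard error; filled red points passed the test. Kcns1 at 0.66 stands highest, and Kcnj16 at -0.32 and Kcnk15 at -0.19 are the filled points below 0.

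Kcns1 encodes a silent subunit that joins Kcnb pore subunits and slows and shifts their gating. Its level was 6.13, 7.54 and 9.89 CPM (lowest, median and highest of 15) in alzheimer rats and 3.93, 4.59 and 6.06 CPM in wildtype rats. The groups did not overlap: the lowest alzheimer library lay above the highest wildtype library. Kcns1 rose by 0.66 ± 0.072 on the log2 scale (± SE, adjusted p = 1.19e-07), and each of the 15 alzheimer libraries lay above the mean of the wildtype libraries of its own sex and diet. The rise passed the test in cohort 1 alone (0.79, adjusted p = 0.0030) and in cohort 2 alone (0.54, adjusted p = 0.0023). That Kcns1 differs by genotype was known from earlier results of these data when it was looked at here.

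By group, Kcns1 had 6.71, 6.83 and 6.78 CPM in female alzheimer western rats, against 4.2, 5.6 and 4.17 CPM in female wildtype western rats. On chow, female alzheimer rats had 6.13, 7.87, 7.16 and 6.49 CPM, and female wildtype rats 3.95, 4.44, 5.93 and 5.04 CPM. Male alzheimer western rats had 9.7, 8.26, 9.4 and 8.02 CPM, and male wildtype western rats 5.57, 4.32, 5.26 and 6.05 CPM. All 4 pairs of groups were separate, with the smallest distance in females on chow. Male alzheimer chow rats had 9.89, 7.04, 7.71 and 7.54 CPM, against 3.93, 5.12, 4.53 and 4.59 CPM in male wildtype chow rats. The fitted rise was 0.64 ± 0.11 on western diet (adjusted p = 0.00034) and 0.67 ± 0.099 on chow (adjusted p = 6.12e-05), and the difference between these was -0.03 ± 0.14 (unadjusted p = 0.846). It was 0.53 ± 0.11 in females (adjusted p = 0.0037) and 0.79 ± 0.098 in males (adjusted p = 2.77e-06), and their difference of -0.26 ± 0.15 did not pass the test (unadjusted p = 0.0834, adjusted p = 0.9992). Of these calls, that on western diet was lost in cohort 1 alone (0.77, adjusted p = 0.184), that on chow in cohort 2 alone (0.53, adjusted p = 0.130) and that in females in either (0.70, adjusted p = 0.191 in cohort 1, and 0.39, adjusted p = 0.178 in cohort 2).

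The other silent subunits did not pass. Kcns2 averaged 26.1 ± 2.68 CPM in alzheimer rats and 23.8 ± 2.35 CPM in wildtype rats (SD, n = 15 each), with a log2 fold change of 0.14 ± 0.046 and an adjusted p of 0.051. Kcns3 averaged 12.7 ± 1.43 CPM in alzheimer rats and 13 ± 1.21 CPM in wildtype rats (log2 fold change -0.04, adjusted p = 0.731). Of the 4 Kcng genes none passed: the one with the most counts, Kcng2, averaged 81.4 ± 8.14 CPM in alzheimer and 80.9 ± 5.99 CPM in wildtype rats, a difference of 0.01 ± 0.036 (adjusted p = 0.885). Kcnf1 averaged 3.66 ± 0.839 CPM in alzheimer and 3.44 ± 1.13 CPM in wildtype rats (0.08 ± 0.15, adjusted p = 0.813). Kcnv1 averaged 34.5 ± 3.11 CPM in alzheimer and 34.4 ± 2.35 CPM in wildtype rats (0.00 ± 0.041 on the log2 scale, adjusted p = 0.999). Kcnb2, a pore gene of the family these subunits join, averaged 7.52 ± 1.05 CPM in alzheimer and 7.34 ± 0.783 CPM in wildtype rats (0.03 ± 0.070, adjusted p = 0.869).

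RefSeq promoter windows were available for 57 of the 77 genes on the rat assembly GRCr8. Shown here are the 250 bases before the start of Kcnj2 and of the 2 genes with the largest genotype difference among those called. Kcnj2 lies next to Kcnj16 on chromosome 10 and differed between the sexes in its relation to diet (below). Capitals mark the GC box GGGCGG or its reverse complement CCGCCC.
Kcns1, chr3:173262347-173262596 (minus strand): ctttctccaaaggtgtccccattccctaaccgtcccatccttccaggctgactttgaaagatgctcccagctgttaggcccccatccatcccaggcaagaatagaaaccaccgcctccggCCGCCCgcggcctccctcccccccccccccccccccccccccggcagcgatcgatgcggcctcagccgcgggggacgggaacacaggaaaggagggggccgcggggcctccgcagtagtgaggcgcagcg
Kcnj16, chr10:96517074-96517323 (plus strand): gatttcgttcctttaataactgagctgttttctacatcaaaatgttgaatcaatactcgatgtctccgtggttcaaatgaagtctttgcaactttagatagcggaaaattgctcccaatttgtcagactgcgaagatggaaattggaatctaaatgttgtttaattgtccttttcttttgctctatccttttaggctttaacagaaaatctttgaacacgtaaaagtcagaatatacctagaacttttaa
Kcnj2, chr10:96559975-96560224 (plus strand): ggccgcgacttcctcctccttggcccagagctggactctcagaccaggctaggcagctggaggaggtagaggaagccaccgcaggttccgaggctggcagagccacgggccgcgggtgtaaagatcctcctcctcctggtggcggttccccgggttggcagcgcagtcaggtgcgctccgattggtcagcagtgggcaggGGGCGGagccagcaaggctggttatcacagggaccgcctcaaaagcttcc
The windows of Kcns1 and Kcnj2 each hold 1 GC box, and that of Kcnj16 none. For Kcnj16 the table places the start inside the annotated gene, so its window does not precede the first base of the gene. G and C made up 68.8% of the Kcns1 window, 33.6% of the Kcnj16 window, the lowest of the 57, and 66.0% of the Kcnj2 window, against medians of 64.8% over the 57 and 51.2% over all 33469 windows. Both strands of the 250 bases before the start were searched in the 57 and in all windows. A GC box was found in 31 of 57 (54.4%, against 30.5% of all windows) and the E-box CACGTG in 2 of 57 (3.51%, against 5.59%). The cAMP response element TGACGTCA was found in 0 of 57 (against 1.59%), and the letters TATAAA in 0 of 57 (against 12.9%). All windows were taken without selection by expression or gene class, whereas the 57 come from protein-coding genes that reached the count limit. The shares are therefore not a comparison with like genes. These are matches of letters and do not show binding.

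Among the voltage-gated pore genes, 3 of 27 rose with genotype and none fell, beside 4.14% and 3.89% of all genes tested. Kcnd3 encodes a pore subunit of the A-type current. It had 75.9, 84.9 and 94.5 CPM (lowest, median and highest) in alzheimer rats and 69.1, 76.4 and 90.6 CPM in wildtype rats, so the ranges overlapped widely. Kcnd3 rose by 0.14 ± 0.036 (adjusted p = 0.010), in 13 of 15 alzheimer libraries, and passed in neither cohort alone (0.12, adjusted p = 0.398 in cohort 1, and 0.16, adjusted p = 0.103 in cohort 2). Kcnh1 encodes the ether-a-go-go channel. Its level was 62.8, 65.7 and 72.8 CPM in alzheimer rats and 52.9, 60.2 and 68.1 CPM in wildtype rats. All 15 alzheimer libraries lay above their wildtype group mean although the ranges overlapped, and the log2 fold change was 0.15 ± 0.029 (adjusted p = 0.0013).

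Kcnq3 encodes a subunit of the M channel. It had 128, 137 and 162 CPM in alzheimer rats and 105, 129 and 144 CPM in wildtype rats. Its rise of 0.14 ± 0.037 (adjusted p = 0.012) was seen in 14 of 15 alzheimer libraries, with an overlap of the middle of the range. For Kcnq5, a further M-channel subunit of the hippocampus, the averages were 115 ± 8.41 CPM in alzheimer and 108 ± 9.31 CPM in wildtype rats (0.08, adjusted p = 0.152). Kcnq1, mainly known from heart and epithelia, was near the detection limit, with 0.688 ± 0.292 CPM in alzheimer and 0.478 ± 0.268 CPM in wildtype rats; its 0.43 ± 0.25 was the second largest rise among the 77 and did not pass (adjusted p = 0.328).

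The remaining pore genes of this class did not pass. In the Kcna family, whose members carry delayed rectifier and A-type currents in axons, 5 of 6 were positive. Kcna6, its member with the most counts, averaged 129 ± 14.2 CPM in alzheimer and 137 ± 12.9 CPM in wildtype rats (-0.09 ± 0.048, adjusted p = 0.298). All 4 Kcnc genes, which encode the fast channels of quickly firing neurons, were positive with log2 fold changes of 0.03 to 0.07. Kcnc1 averaged 125 ± 7.32 CPM in alzheimer and 121 ± 6.43 CPM in wildtype rats (0.05 ± 0.028, adjusted p = 0.308). Kcnd2, the other main A-type gene of pyramidal cells, averaged 260.5 ± 14.7 CPM in alzheimer and 254 ± 11.8 CPM in wildtype rats (0.03 ± 0.022, adjusted p = 0.398). Kcnh3 averaged 130.3 ± 11.5 CPM in alzheimer and 133 ± 7.42 CPM in wildtype rats (-0.03 ± 0.031, adjusted p = 0.668), and the other Kcnh genes lay between -0.10 and 0.18.

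Of the 12 inward rectifier genes, Kcnj4 and Kcnj3 rose and Kcnj16 fell (25%, beside 8.03% of all genes tested). Kcnj16 encodes a subunit that joins the astrocytic subunit of Kcnj10 and makes the channel sensitive to pH. Its level was 7.3, 8.86 and 10.4 CPM (lowest, median and highest) in alzheimer rats and 9.02, 10.6 and 14.2 CPM in wildtype rats. It fell by 0.32 on the log2 scale (SE 0.049, adjusted p = 4.75e-05), with 13 of 15 alzheimer libraries below their wildtype group mean. In cohort 2 alone it passed (-0.31, adjusted p = 0.023), and in cohort 1 alone it had a like size and did not (-0.34, adjusted p = 0.111). Kcnj10, its astrocyte partner, averaged 47.9 ± 3.91 CPM in alzheimer and 47.6 ± 5.93 CPM in wildtype rats (0.01, adjusted p = 0.915).

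Astrocyte and pericyte markers moved beside Kcnj16. Of 8 astrocyte markers, Gfap rose by 0.17 and Slc1a3 and S100b fell by 0.12 and 0.13, and the summed level was 4398 to 5200 CPM in alzheimer and 4192 to 5125 CPM in wildtype rats. Of 8 pericyte and smooth muscle markers, Rgs5 and Notch3 fell and none rose, and the sum was 161 to 219 CPM in alzheimer and 174 to 237 CPM in wildtype rats. No marker of either list was at 0 in any library. Their part in the fall of Kcnj16 was not tested.

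Kcnj4 encodes a strong inward rectifier of forebrain neurons. It had 99.1, 110.3 and 125 CPM in alzheimer rats and 90.1, 102 and 112 CPM in wildtype rats. It rose by 0.13 ± 0.029 (adjusted p = 0.0047) in 14 of 15 libraries and passed in neither cohort alone (0.16, adjusted p = 0.092 in cohort 1, and 0.11, adjusted p = 0.138 in cohort 2). Kcnj3 encodes a subunit of the channel that G-protein coupled receptors open. With 72.3, 84.3 and 92.2 CPM in alzheimer rats and 68.9, 79.5 and 87.6 CPM in wildtype rats, its ranges overlapped for the most part. The rise of Kcnj3, 0.10 ± 0.030 (adjusted p = 0.038, 13 of 15 libraries), had the largest adjusted p of the 8 and was lost when any of 16 single libraries was left out (adjusted p up to 0.092), without the 3 libraries rich in choroid plexus markers (adjusted p = 0.056) and with library size in the model (adjusted p = 0.073). In cohort 1 alone it was 0.04 and did not pass (adjusted p = 0.816), and in cohort 2 alone it was 0.14 and passed (adjusted p = 0.032). The other subunits of that channel, Kcnj6, Kcnj9 and Kcnj5, did not pass. Kcnj6 averaged 514 ± 33.4 CPM in alzheimer and 497 ± 36.4 CPM in wildtype rats (0.05 ± 0.029, adjusted p = 0.333). Kcnj9 averaged 97.7 ± 5.01 CPM in alzheimer and 96.5 ± 9.65 CPM in wildtype rats (0.03, adjusted p = 0.722).

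Among CA1 markers, Wfs1 and Pou3f1, 2 of the 4 with a row, fell in alzheimer rats beside the rises of Kcnj4 and Kcnj3. The others, Mpped1 (-0.09) and Fibcd1 (0.15), differed in sign and did not pass. The summed level of CA1 markers was 1019 to 1570 CPM in alzheimer and 1102 to 1504 CPM in wildtype rats. Among dentate markers C1ql2 fell, 1 of 3 tested, whereas Prox1 (0.15) and Calb1 (0.05) were positive and did not pass. Dentate markers summed to 322 to 401 CPM in alzheimer and 324 to 431 CPM in wildtype rats. The dentate marker Lct was at 0 in 15 libraries. Whether these shifts take part in the channel differences was not tested.

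Among the 11 leak channel genes only Kcnk15 passed in this fit (9.09%, beside 8.03% of all genes tested). Kcnk15 belongs to the acid-sensitive group and gives no current of its own in expression systems. It had 7.83, 9.29 and 10.9 CPM in alzheimer rats and 9.31, 11 and 12.6 CPM in wildtype rats. All 15 alzheimer libraries lay below their wildtype group mean, and the log2 fold change was -0.19 ± 0.056 (adjusted p = 0.028). The call was lost when replicate 11, 21, 22 or 29 was left out (adjusted p up to 0.062), without the 3 libraries rich in choroid plexus markers (adjusted p = 0.074) and in cohort 1 alone (-0.10, adjusted p = 0.755). Its annotated span overlaps Rims4. No source used here gives the strand setting of the counts, so reads of the 2 genes may not be told apart. The same holds for Kcnk16 with Nudt13, Kcnab2 with Nphp4, Kcnh3 with Mcrs1, Kcnj9 with Igsf8, Kcnh7 with Gca and Kcnip1 with Kcnmb1. Kcnk1, the member with the most counts, averaged 72.5 ± 3.91 CPM in alzheimer and 71.0 ± 3.39 CPM in wildtype rats (0.03 ± 0.029, adjusted p = 0.601). Kcnk13, found in microglia, had the largest fall of the others, -0.24 ± 0.13 (adjusted p = 0.269).

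Calcium- and sodium-activated channel genes did not pass. Kcnma1, the pore of the large-conductance channel, averaged 82.6 ± 5.91 CPM in alzheimer and 77.3 ± 7.31 CPM in wildtype rats (0.10 ± 0.041, adjusted p = 0.154). Kcnn2, a channel of the afterhyperpolarisation, averaged 30.5 ± 2.57 CPM in alzheimer and 30.03 ± 2.08 CPM in wildtype rats (0.01 ± 0.039, adjusted p = 0.908). Kcnt2 averaged 36.9 ± 3.62 CPM in alzheimer and 35.5 ± 2.66 CPM in wildtype rats (0.06 ± 0.039, adjusted p = 0.376).

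None of the 12 accessory genes passed. Kcnab2, a beta subunit of Kcna channels, averaged 523 ± 28.9 CPM in alzheimer and 519 ± 24.3 CPM in wildtype rats (0.01 ± 0.027, adjusted p = 0.876). Kcnip4, which tunes Kcnd channels to calcium, averaged 40.0 ± 3.07 CPM in alzheimer and 38.0 ± 3.17 CPM in wildtype rats (0.07 ± 0.036, adjusted p = 0.235). Kcnip2, of the same group, had the largest negative log2 fold change of all 77 genes. It averaged 1.73 ± 0.387 CPM in alzheimer and 2.14 ± 0.395 CPM in wildtype rats, and its -0.33 ± 0.12 missed the threshold (adjusted p = 0.078). Kcnmb4, the neuronal beta subunit of Kcnma1, averaged 57.4 ± 3.79 CPM in alzheimer and 58.0 ± 2.55 CPM in wildtype rats (-0.01 ± 0.031, adjusted p = 0.855). Kcne5 averaged 2.76 ± 0.673 CPM in alzheimer and 2.58 ± 0.548 CPM in wildtype rats (0.07 ± 0.12, adjusted p = 0.794).

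**Figure D3:**
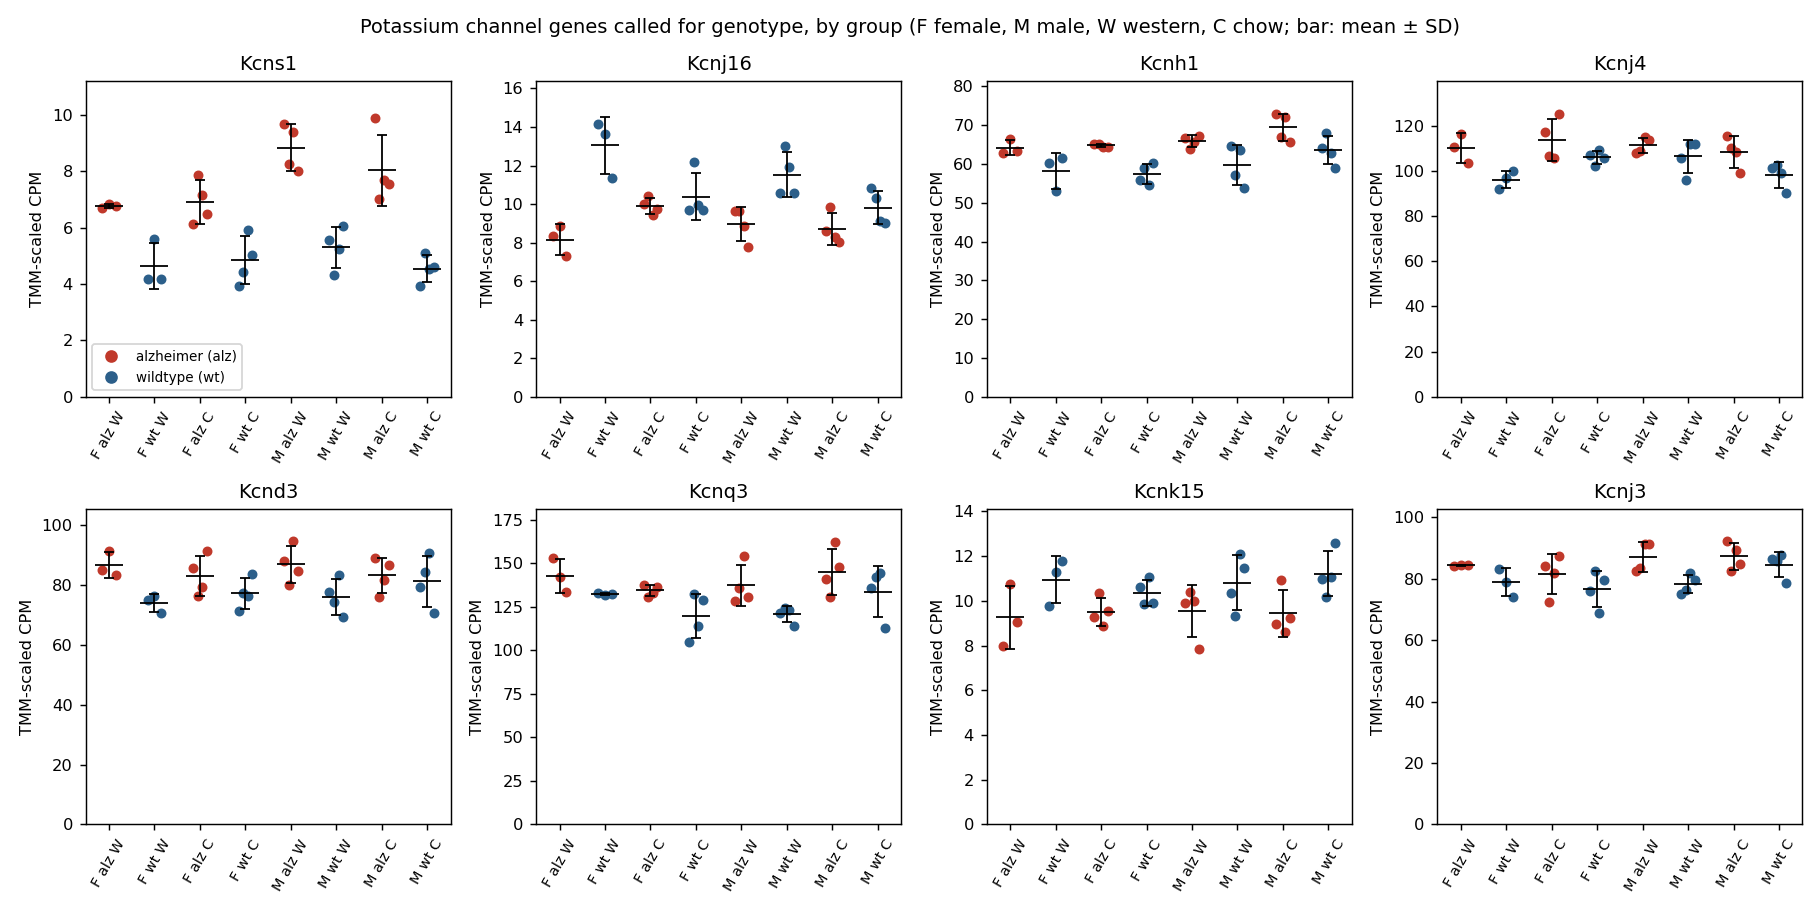
Expression (TMM-scaled CPM, axes from 0) of the 8 genes that passed the genotype test, in each of the 30 libraries by group; red points are alzheimer and blue points wildtype libraries, with mean and SD. The colours are separate for Kcns1, with 6.13 CPM or more in red and 6.06 CPM or less in blue, and Kcnj16 differs most on western diet.

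Split by diet, the genotype difference of Kcnj16 passed the test on western diet and not on chow. On western diet it had 7.3, 8.84 and 9.64 CPM (lowest, median and highest of 7) in alzheimer rats and 10.6, 11.9 and 14.2 CPM in wildtype rats, with no overlap. On chow it had 8.04, 9.59 and 10.4 CPM in alzheimer rats and 9.02, 9.82 and 12.2 CPM in wildtype rats (8 each), which overlapped. The log2 fold change was -0.52 ± 0.072 on western diet (adjusted p = 2.99e-05, but 0.184 in cohort 1 alone) and -0.12 ± 0.068 on chow (adjusted p = 0.519). The difference between these, -0.39 ± 0.099, had the smallest unadjusted p of the 77 genes (0.00035) but did not pass adjustment over all genes (adjusted p = 0.9999), so the 2 diets were not shown to differ. The western minus chow difference of Kcnj16 was -0.10 ± 0.071 in alzheimer rats (adjusted p = 1) and 0.29 ± 0.069 in wildtype rats (unadjusted p = 0.00017, adjusted p = 0.935).

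In all, 3 of the 77 genes passed for genotype on western diet (3.9%, beside 3.17% of all genes tested): Kcnj16, Kcns1 and Kcnd3. Kcnd3 rose there by 0.21 ± 0.052 (adjusted p = 0.019), a call lost without replicate 18, 22 or 23 and in either cohort alone. On chow 1 gene passed, Kcns1 (background 0.901%). In females 3 passed, Kcnj16, Kcns1 and Kcnh1 (background 2.57%), and in males 2, Kcns1 and Kcnj16 (background 1.25%). Kcnh1 rose in females by 0.16 ± 0.042 (adjusted p = 0.038); its levels there were 62.8 to 66.3 CPM in alzheimer and 52.9 to 61.7 CPM in wildtype rats, and the call was lost when any of 10 single libraries was left out. Kcnj16 changed by -0.37 ± 0.071 in females (adjusted p = 0.0023, but 0.234 in cohort 1 and 0.152 in cohort 2 alone) and -0.27 ± 0.068 in males (adjusted p = 0.041), where leaving out any of 13 single libraries ended the call. For neither interaction did a gene pass: genotype by diet and genotype by sex each gave 0 of 77 and 0 of all genes tested. An unadjusted p under 0.05 was reached by 3 of 77 for genotype by diet (3.9%, against 3.55% of all genes). For genotype by sex it was reached by 4 of 77 (5.19%, against 4.21%). DESeq2 and limma-voom also called none of the 77 in either.

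The genes with the next smallest p in the genotype by diet test were Kcnh5 (0.58 ± 0.26, unadjusted p = 0.033) and Kcnj6 (0.12 ± 0.058, unadjusted p = 0.042), both with an adjusted p of 0.9999. In the genotype by sex test they were Kcnab1, Kcne4 and Kcnh8, each with an adjusted p of 0.9992. Kcnab1, a beta subunit gene, averaged 220.1 ± 15.2 CPM in female alzheimer and 239 ± 13 CPM in female wildtype rats (n = 7 each), and 239 ± 12 CPM in male alzheimer and 235 ± 10.7 CPM in male wildtype rats (n = 8 each). Its difference between the sexes was -0.15 ± 0.055 (unadjusted p = 0.013). Kcne4 had -0.73 ± 0.33 and Kcnh8 0.59 ± 0.28, both at low levels.

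Diet averaged over sex and genotype gave 0 of 77 genes called, beside 1 of all genes tested (0.00797%). An unadjusted p under 0.05 was reached by 3 of the 77 (3.9%, against 5.55% of all genes tested), and DESeq2 and limma-voom called 0. Those 3 genes were Kcnq5, Kcne2 and Kcnj10, each with an adjusted p of 0.822. Kcnq5 averaged 108 ± 7.33 CPM on western diet and 115 ± 9.70 CPM on chow (SD, n = 14 and 16), a log2 fold change of -0.09 ± 0.035. Kcne2, an accessory subunit known from choroid plexus and heart, averaged 2.13 ± 0.392 CPM on western diet and 2.58 ± 0.423 CPM on chow, and its -0.28 ± 0.11 was the largest diet difference of the 77. Choroid plexus markers summed to 2.87 to 19.4 CPM in western and 2.95 to 64.6 CPM in chow libraries, 0 of the 5 tested were called for diet by edgeR with 2 at an unadjusted p under 0.05, and Sostdc1 and Tmem72 were at 0 in 12 libraries each and Prlr in 4; their part was not tested. Kcnj10, the potassium-clearing channel of astrocytes, averaged 49.4 ± 4.37 CPM on western diet and 46.3 ± 5.07 CPM on chow (0.11 ± 0.044).

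Within alzheimer rats none of the 77 genes reached an unadjusted p under 0.05 for diet; the smallest belonged to Kcnh5 (0.37 ± 0.18), Kcnq5 (-0.09 ± 0.049) and Kcnj6 (0.07 ± 0.041), each with an adjusted p of 1. Within wildtype rats 4 did (5.19%), with 0 called. Of all genes tested, 3.89% did in alzheimer and 5.2% in wildtype rats. Among the 4 were Kcnj16 as given above, Kcne2 (-0.49 ± 0.15, with 1.94 ± 0.431 CPM on western diet and 2.7 ± 0.504 CPM on chow) and Kcnc1 (-0.09 ± 0.040), each with an adjusted p of 0.935. The share of all genes tested that were called was 0% in both genotypes, and DESeq2 and limma-voom called none of the 77.

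Sex averaged over genotype and diet also gave 0 of 77 called, beside 0.837% of all genes tested, with 13 of 77 (16.9%, against 14.8% of all genes) at an unadjusted p under 0.05. Kcnd2 came closest: it had 232, 251 and 265 CPM (lowest, median and highest of 14) in females and 245, 265 and 284 CPM in males (of 16), a log2 fold change of -0.08 ± 0.023 (adjusted p = 0.059). DESeq2 and limma-voom each called 1 of the 77 for sex. Kcnip4, whose protein binds Kcnd channels, averaged 37.5 ± 2.42 CPM in females and 40.4 ± 3.33 CPM in males (-0.11 ± 0.036, adjusted p = 0.133). Kcnab3 averaged 10.8 ± 1.18 CPM in females and 12.1 ± 1.15 CPM in males (-0.16 ± 0.057, adjusted p = 0.15). The largest sex difference by size was that of Kcnk16, with 1.25 ± 0.594 CPM in females and 0.83 ± 0.390 CPM in males (0.61 ± 0.28, adjusted p = 0.303), a gene whose count fell to 1 in its lowest library.

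Diet and sex interacted for 3 genes, Kcnj2, Kcng1 and Kcna4, whose diet difference had opposite signs in females and males. That is 3.9% of the 77, beside 1.23% of all genes tested (154 genes); at an unadjusted p under 0.05 the shares were 14.3% and 14.7%. Kcnj2 encodes the classical strong inward rectifier, known from neurons, endothelium and microglia. It had 3.57, 4.26 and 5.22 CPM (lowest, median and highest of 6) in females on western diet and 4.33, 5.8 and 7.12 CPM in females on chow (of 8). In males it had 4.25, 6.09 and 7.72 CPM on western diet and 3.69, 4.32 and 4.79 CPM on chow (8 each). Females on western diet were thus mostly low and males on western diet mostly high, with overlap in both sexes.

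The diet difference of Kcnj2 was -0.41 ± 0.13 in females (adjusted p = 0.238), with 6 of 6 western libraries below the chow mean of their genotype, and 0.48 ± 0.12 in males (adjusted p = 0.099), with 7 of 8 above. Neither passed on its own, and the difference between them did: -0.89 ± 0.18 (adjusted p = 0.0058). In cohort 2 alone it was -1.19 (adjusted p = 0.037) and in cohort 1 alone -0.47 (adjusted p = 0.569), where females on western diet are represented by 1 library per genotype. In females the difference was -0.52 in cohort 2 (adjusted p = 0.453) and -0.19 in cohort 1 (adjusted p = 0.914). In males it was 0.67 in cohort 2 (adjusted p = 0.341) and 0.28 in cohort 1 (adjusted p = 0.620), and over both cohorts it passed with DESeq2 (adjusted p = 0.029) and with no filter on low counts (adjusted p = 0.039). By group, Kcnj2 had 4.73, 4.31 and 4.22 CPM in female alzheimer western rats and 5.82, 4.91, 5.52 and 6.32 CPM in female alzheimer chow rats. Male alzheimer western rats had 5.78, 4.25, 7.72 and 5.67 CPM, and male alzheimer chow rats 4.66, 3.69, 4.79 and 3.96 CPM. The opposite signs were thus present among alzheimer rats, with the female ranges separate and the male ranges overlapping.
Among wildtype rats the signs were the same. Female wildtype western rats had 5.22, 4.14 and 3.57 CPM, and female wildtype chow rats 5.79, 6.12, 4.33 and 7.12 CPM. Male wildtype western rats had 6.4, 4.46, 6.56 and 7.7 CPM, and male wildtype chow rats 4.13, 4.76, 4.32 and 4.32 CPM. Kcnj16, its neighbour on the chromosome, did not pass the diet by sex test, with a diet difference of 0.05 ± 0.072 in females and 0.14 ± 0.068 in males.

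Kcng1 encodes a silent partner of Kcnb subunits. Its level was 66.2, 71.1 and 103 CPM in females on western diet and 56.6, 61.2 and 69.5 CPM in females on chow; in males it was 58.4, 64.5 and 70.5 CPM on western diet and 64.6, 72.3 and 80.8 CPM on chow. Its median was thus higher on western diet in females and lower in males, the reverse of Kcnj2. The diet difference was 0.28 ± 0.067 in females (adjusted p = 0.079, 6 of 6 libraries above the chow mean) and -0.18 ± 0.062 in males (adjusted p = 0.259, 8 of 8 below), and their difference was 0.45 ± 0.091 (adjusted p = 0.0063). In cohort 2 alone that difference was 0.31 and did not pass (adjusted p = 0.431). In males the cohorts differed: the diet difference was -0.31 in cohort 1 alone, where it passed (adjusted p = 0.040), and -0.03 in cohort 2 alone (adjusted p = 0.959). In females it was 0.23 in cohort 1 alone and 0.28 in cohort 2 alone, passing in neither (adjusted p = 0.282 and 0.471). The value of 103 CPM came from female alzheimer western replicate 18. Without that library the female difference was 0.18 (adjusted p = 0.372), and without replicate 21 it was 0.33 and passed (adjusted p = 0.040). It also passed with DESeq2 (adjusted p = 0.026), with no filter on low counts (adjusted p = 0.0075) and without the 3 libraries rich in choroid plexus markers (0.34, adjusted p = 0.042). For the difference between the sexes, leaving out 1 library at a time gave 0.36 to 0.50, with an adjusted p of at most 0.020.

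Kcna4 encodes the A-type subunit of axons and terminals. It had 38.2, 42.1 and 48.2 CPM in females on western diet and 43.4, 48.6 and 51.8 CPM in females on chow, and 38.7, 49.8 and 52.5 CPM in males on western diet and 36.0, 41.6 and 47.6 CPM in males on chow. It had the same signs as Kcnj2. The diet difference was -0.18 ± 0.066 in females (adjusted p = 0.348, 6 of 6 below the chow mean) and 0.20 ± 0.061 in males (adjusted p = 0.185, 6 of 8 above), and their difference was -0.38 ± 0.090 (adjusted p = 0.025). The call was lost in either cohort alone (adjusted p = 0.469 in cohort 1 and 0.147 in cohort 2), when replicate 12 or 18 was left out (adjusted p up to 0.056) and without the 3 libraries rich in choroid plexus markers (adjusted p = 0.061).

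**Figure D4:**
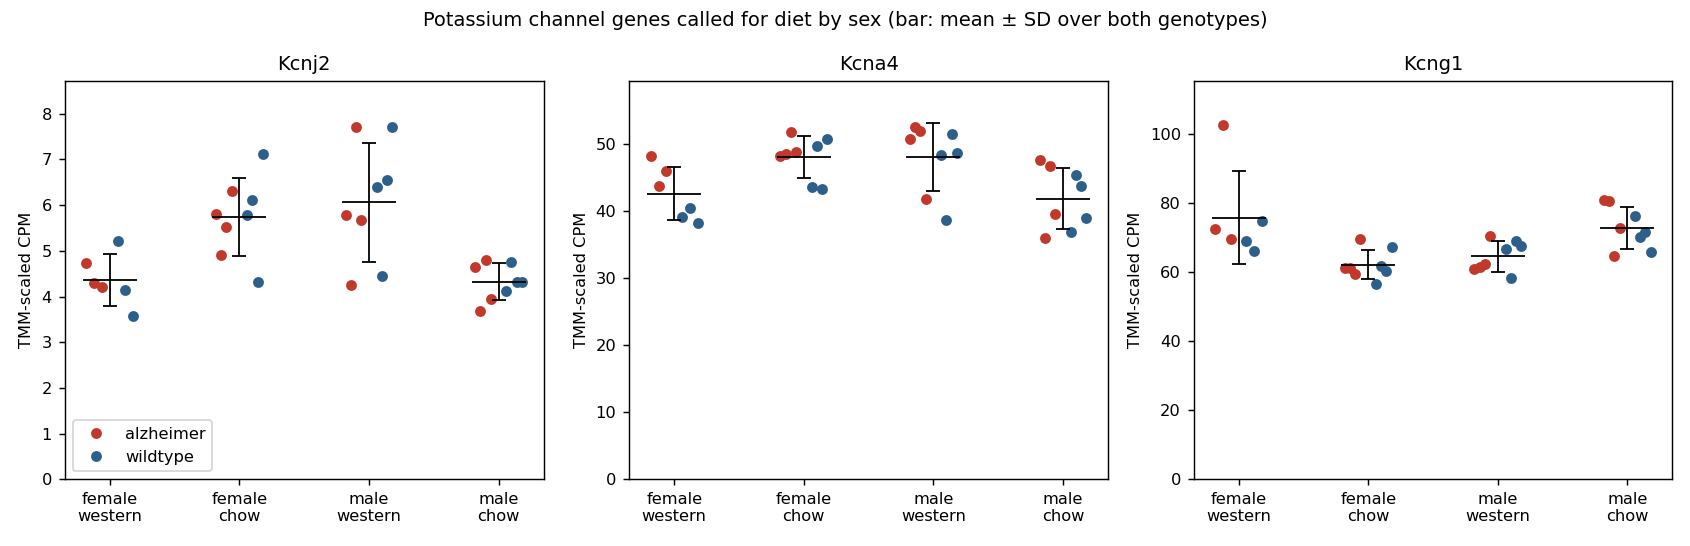
Expression (TMM-scaled CPM, axes from 0) of Kcnj2, Kcna4 and Kcng1 in each library by sex and diet; red points are alzheimer and blue points wildtype libraries, with mean and SD over both genotypes. Kcnj2 and Kcna4 are lower on western diet in females and higher in males, and Kcng1 shows the reverse.

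Marker genes of other cell types differed in the same test. A negative value means a lower diet difference in females than in males. Of 6 endothelial markers tested all 6 were negative, and Cldn5 passed (-0.26, adjusted p = 0.011). Of 8 microglial markers 7 were negative, and P2ry12 passed (-0.46, adjusted p = 0.024); the remaining one, Tmem119, was at 0.28 (adjusted p = 0.247). All 8 oligodendrocyte markers were negative, with a median of -0.21; none passed with edgeR, and 2 had an unadjusted p under 0.05. Of 5 oligodendrocyte precursor markers 4 were negative, down to -0.30, and Olig2 was positive and passed (0.53, adjusted p = 0.0011). Endothelial markers summed to 227 to 315 CPM in females on western diet and 268 to 328 CPM in females on chow, and to 247 to 336 CPM in males on western diet and 233 to 290 CPM in males on chow. Oligodendrocyte markers summed to 8102 to 13234 CPM in females on western diet and 10517 to 14000 CPM in females on chow, and to 9452 to 14589 CPM in males on western diet and 8163 to 13402 CPM in males on chow. Microglial markers summed to 399 to 460 CPM in females on western diet and 407 to 484 CPM in females on chow, and to 391 to 455 CPM in males on western diet and 355 to 427 CPM in males on chow. No endothelial or microglial marker with a row was at 0 in any library. Their part in the differences of Kcnj2, Kcng1 and Kcna4 was not tested.

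For diet within females 0 of the 77 passed (background 0.183%), and DESeq2 called 1 and limma-voom 0. An unadjusted p under 0.05 was reached there by 7 (9.09%, against 9.56% of all genes tested). Within males 0 passed (background 0.128%), and DESeq2 called 1 and limma-voom 0. An unadjusted p under 0.05 was reached there by 12 (15.6%, against 11% of all genes tested). The 3 smallest p in each sex belonged to Kcnj2, Kcng1 and Kcna4.

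**Figure D5:**
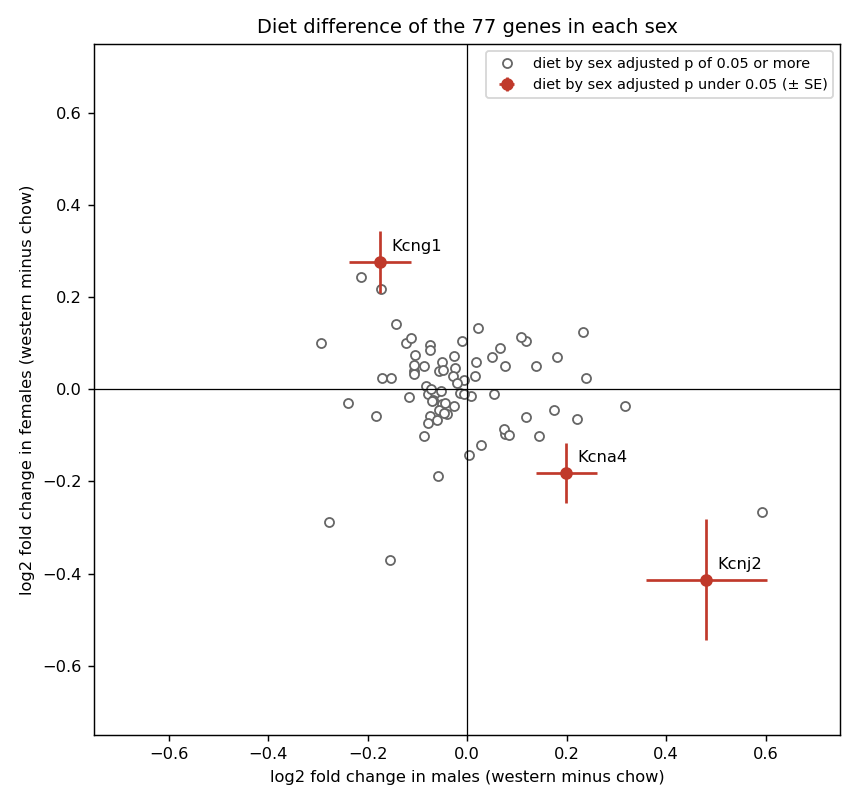
Diet difference (log2 fold change, western minus chow) of each of the 77 genes in females (vertical axis) against males (horizontal axis); filled red points with standard errors passed the diet by sex test. Kcnj2 lies at -0.41 in females and 0.48 in males, Kcna4 at -0.18 and 0.20, and Kcng1 at 0.28 and -0.18.

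A list of 20 genes whose proteins sit in or beside potassium channels, or belong to the related HCN cation channels, served as the surroundings of the set. Of these, 18 had a row and 17 were tested. For genotype 1 rose and 2 fell, 17.6% beside the background of 8.03%. Abcc9 encodes the sulfonylurea subunit of vascular ATP-sensitive channels. It had 10.6, 13.1 and 19.2 CPM in alzheimer rats and 13.6, 17 and 21.2 CPM in wildtype rats (-0.33 ± 0.073, adjusted p = 0.0034), and 13 of 15 alzheimer libraries lay below their wildtype group mean. Vascular markers moved beside it. All 8 pericyte and smooth muscle markers had negative genotype differences, of which Rgs5 (-0.24) and Notch3 (-0.20) passed, and so did all 6 endothelial markers tested, of which Cldn5 (-0.11) and Flt1 (-0.11) passed. Endothelial markers summed to 227 to 297 CPM in alzheimer and 233 to 336 CPM in wildtype rats. Their part in the fall of Abcc9 was not tested. Its pore partner and neighbour Kcnj8 averaged 4.13 ± 0.869 CPM in alzheimer and 4.45 ± 0.610 CPM in wildtype rats and did not pass (-0.12, adjusted p = 0.534). In neurons, the ATP-sensitive pair is Kcnj11 with Abcc8, and neither passed: Kcnj11 averaged 48.7 ± 4.22 CPM in alzheimer and 47.9 ± 3.17 CPM in wildtype rats (0.03, adjusted p = 0.737), and Abcc8 had 56.2 ± 3.90 CPM in alzheimer and 54.0 ± 3.87 CPM in wildtype rats (0.06, adjusted p = 0.395).

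Hcn2 encodes a channel of the hyperpolarisation-activated current. Its level was 130.2, 159 and 179 CPM in alzheimer rats and 155, 179.9 and 197 CPM in wildtype rats. It fell by 0.20 on the log2 scale (SE 0.042, adjusted p = 0.0028), in 14 of 15 libraries. Lgi1, a secreted protein that acts on Kcna channels, averaged 165 ± 10.9 CPM in alzheimer and 154 ± 11.9 CPM in wildtype rats; its rise of 0.11 ± 0.033 (adjusted p = 0.035) was lost when any of 11 single libraries was left out and in either cohort alone. In cohort 1 alone Abcc9 and Hcn2 did not pass (adjusted p = 0.146 and 0.106). For diet and for sex 0 of the 17 passed. At an unadjusted p under 0.05 were 0 and 3 (0% and 17.6%, against 5.55% and 14.8% of all genes). DESeq2 called 0 for both, and limma-voom 0 for diet and 1 for sex.

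Across all 30 libraries the coefficient of variation of a gene ranged from 5.05% for Kcnab2 to 51.8% for Kcnk16, with a median of 10.5%. Within groups, the median residual SD was 0.138 on the log2 scale for the 77 genes and 0.117 for all genes tested, and the median mean level was 16.8 CPM, against 26.8 CPM. Counts in the lowest library were 1 for Kcnk16 and Kcnq1, 5 for Kcng3, 7 for Kcne4 and 9 for Kcna5; differences of these 5 genes are the least precise. Cohort 2 against cohort 1 gave 0 of 77 called (background 0.0877%), with 1 called by DESeq2 and 0 by limma-voom. An unadjusted p under 0.05 was reached by 8 (10.4%, against 12.6% of all genes tested). Among those 8 were Kcnj9 (0.12 ± 0.036, adjusted p = 0.14) and Kcnh3 (0.10 ± 0.031, adjusted p = 0.159).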

How the data were processed

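The authors deposited 1 table of raw counts, by gene symbol, for 30 polyA libraries of snap-frozen dorsal hippocampus, prepared with the NEB Ultra II kit per the labels' protocols. The submitters' processing notes name cutadapt and STAR 2.7.0a. How the reads were counted, whether strand was used, and which build and gene models served were not given in the sources used here. The counts were used as deposited and every column was matched to 1 sample.

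Counts were fitted in R 4.3.3 with edgeR 4.0.16, modelling the mean of each of the 8 groups and an offset between cohorts. The filterByExpr step (minimum count 10, minimum total 15) left 12547 of 17455 genes. Library sizes were scaled by TMM, and contrasts were tested by the two-sided quasi-likelihood F test, with Benjamini-Hochberg adjustment over all genes tested and a threshold of 0.05. Every adjusted p in the text is from this fit unless another tool is named. Log2 fold changes carry the standard error of the fit, and CPM values the SD over libraries. Counts of libraries above or below compare each alzheimer or western library with the wildtype or chow mean at the same levels of the other factors, as a description. CPM were not compared between genes, as no transcript lengths were used.

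The potassium channel genes and all other gene lists were chosen with earlier results of these data known. Full statistics were given for every gene called in a contrast, for the 3 smallest p where none was called, for the gene with the most counts in each subfamily, for the largest genotype, diet and sex difference, and for called genes of the accompanying list; other genes are named with fewer values. Some genes that this rule gives are not reported here. Alternatives were DESeq2 1.42.0, limma-voom with quality weights (limma 3.58.1), size factors by the median of ratios, all genes with 1 count or more, genes over 1 CPM in 8 or more libraries, no cohort term, log2 library size as a covariate, either cohort alone, the libraries without the 3 highest in choroid plexus markers, and leaving out each library in turn. The fits were tested on simulated data. Promoter windows came from RefSeq (GRCr8), matched by symbol, and their 250 bases before the start were searched for 4 motifs. Depth limits precision most for genes with few counts.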

Additional observations from a re-analysis of the deposited data

Results flagged for a closer look

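Diet and sex interacted for 3 genes, by a test of the difference itself. The diet difference in females minus that in males was -0.89 for Kcnj2, 0.45 for Kcng1 and -0.38 for Kcna4 on the log2 scale (adjusted p = 0.0058, 0.0063 and 0.025). Each had opposite signs in the 2 sexes, but none of these diet differences passed within 1 sex in the main fit. The Kcna4 call was lost without replicate 12 or 18, and the Kcng1 call in cohort 2 alone. For Kcnj2 the value was -1.19 in cohort 2 alone and -0.47 in cohort 1 alone.

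Single libraries stood apart from the others of their group for genes named above. For Kcna4, female alzheimer chow replicate 16 had 51.8 CPM, against 48.2 to 48.7 CPM in the other libraries of its group. Male alzheimer western replicate 28 had 41.8 CPM of Kcna4, against 50.8 to 52.5 CPM. The same library had 70.5 CPM of Kcng1, against 60.8 to 62.3 CPM, so it was low for one and high for the other. For Kcng1, female alzheimer chow replicate 19 had 69.5 CPM, against 59.5 to 61.2 CPM. For Kcnj16, female wildtype chow replicate 13 had 12.2 CPM, against 9.68 to 9.95 CPM. These were 5 of 66 combinations of gene and group examined by the size of the gap, and chance gives about 1 in 20. The 103 CPM of Kcng1 in female alzheimer western replicate 18, given above, is not among these 5.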

How the results depend on the processing

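No paired analysis was possible because every library has its own replicate number. No value changed direction under the 10 alternatives or with a library left out. Of the 77 genes, the count called for genotype was 8, and 1 in cohort 1 alone. For sex (0) it was 1 without a filter, with DESeq2 and with limma-voom. For diet by sex (3) it was 5 without a filter and 1 in either cohort alone. For genotype on western diet (3) it was 0 in cohort 1 alone. On chow (1) it was 2 with DESeq2, 2 without the 3 libraries rich in choroid plexus markers and 0 in cohort 2 alone. In females (3) it was 5 without a filter and 0 in either cohort alone. In males (2) it was 1 without a filter, with limma-voom, without the cohort term, with library size added, in cohort 1 alone and without those 3 libraries. For diet in females (0) it was 1 without a filter, with DESeq2 and without those 3 libraries, and in males (0) 1 without a filter, with DESeq2 and in cohort 1 alone. For cohort (0) it was 1 with DESeq2. Of the accompanying genes, the genotype count (3) was 0 in cohort 1 alone, and the sex count (0) was 1 without a filter, with limma-voom and in cohort 1 alone. Leaving out 1 library gave 6 to 12 for genotype, 0 to 1 for sex, 2 to 5 for diet by sex, 2 to 4 for genotype on western diet, 1 to 2 on chow, 2 to 5 in females, 1 to 3 in males, 0 to 1 for diet in females, and 2 to 5 (genotype) and 0 to 1 (sex) for the accompanying genes. The causes were not tested, beyond the fewer libraries of a single cohort: in cohort 1 each female western group has 1 library. Median-of-ratios scaling put the median genotype difference of all genes at 0.0013, against 0.0020 with TMM.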
